A study of Homo sapiens with 36 samples.

Results

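The EGFR system was followed through 8 genes that were picked by symbol out of the 60591 genes in the deposited mRNA count table. They are 5 ligands, amphiregulin (AREG), epiregulin (EREG), heparin-binding EGF-like growth factor (HBEGF), transforming growth factor alpha (TGFA) and betacellulin (BTC), and 3 receptors, EGFR, ERBB2 and ERBB3. Messenger RNA had been sequenced in 18 libraries from Caco-2 and HT-29, which are 2 cell lines derived from human colorectal tumours, with 3 replicates in each of 6 groups. Per the labels, the Caco-2 cells had been left to differentiate for 21 days, while no such stage is given for HT-29, which grew in another medium, so that line, medium and culture state cannot be told apart. For 24 h, each line was exposed to CoCl2 (300 µM), to an oxyquinoline derivative (OD, 5 µM) or to solvent alone as the control. Both agents serve as chemical models of hypoxia because they block the prolyl hydroxylases through which cells degrade hypoxia-inducible factor (HIF). For CoCl2 the study also names ascorbate oxidation and other possible routes. It describes reactive oxygen species as a possible side effect of CoCl2, separate from HIF. Per the labels, control and OD wells held 0.5 µl of dimethyl sulfoxide per ml and the CoCl2 stock was aqueous, but the study's methods differ from the labels on the amount of solvent and on whether the CoCl2 medium held it, so a difference in solvent between CoCl2 and control wells cannot be told apart from the agent. The labels call the replicates biological but do not say how the cultures were separated, and p-values therefore measure the spread between these samples. Each group stands for a single cancer line, and the structure of OD is not given in the labels.

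The 5 ligands are made as membrane-anchored precursors, and their EGF-like part is released by cell-surface proteases such as ADAM17. AREG, EREG, HBEGF, TGFA and BTC bind EGFR, and HBEGF, EREG and BTC can also bind ERBB4. Ligand binding pairs EGFR with itself or with ERBB2, which has no known ligand of its own, or with ERBB3, which binds neuregulins, has little kinase activity and couples strongly to the PI3-kinase pathway. The signal runs through GRB2, RAS, RAF and MEK to ERK, and ERK induces both growth genes and its own inhibitors. In the gut lining this pathway is known for driving growth and repair of the epithelium.

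The libraries held between 12925719 and 22332639 counts, and a floor of 3 counts lay between 0.134 and 0.232 CPM (counts per 1000000 counts of the library), a limit that covers counting error only. Levels are CPM after trimmed-mean (TMM) scaling of the libraries of a line unless stated otherwise. Scaling by library size alone shifted the all-gene median of the log2 fold change in Caco-2 by -0.32 (CoCl2) and -0.15 (OD), and the HT-29 median by -0.63 (CoCl2) and -0.14 (OD), and changes are given relative to TMM. Both lines showed epithelial markers, with EPCAM, CDH1, KRT8, KRT18, KRT20 and CDX2 summing to 3870 to 7510 CPM in Caco-2 and 4910 to 6980 CPM in HT-29. Between the controls, 5 of these 6 were called, 3 higher and 2 lower in HT-29 (log2 -3.50 to 5.95). With CoCl2, KRT8 and KRT18 were called higher in Caco-2, and in HT-29 KRT20 higher and CDX2 lower (-1.46). With OD, KRT20 was called higher in both lines. Of 8 enterocyte markers all were detected in Caco-2, with a sum of 3500 to 4860 CPM that was mostly APOA1, while in HT-29 the sum ran from 40.3 to 224 CPM and ALPI, APOA4 and LCT had at most 3 counts in any library. With CoCl2 in Caco-2, SI (-1.33), LCT (-1.47) and FABP2 (-1.27) of these markers were called lower and APOA4 (2.22) higher on the log2 scale, and their median was -0.66. In HT-29 the enterocyte sum was 218 to 224 CPM in controls, 40.3 to 45.6 CPM under CoCl2 and 97.2 to 106 CPM under OD. The part of these markers' changes in the results below was not tested. Of 5 fibroblast markers, COL1A2 and DCN had at most 3 counts in both lines, and the summed level was 3.14 to 31.1 CPM. The 4 endothelial markers summed to 8.93 to 12.8 CPM in Caco-2 controls, 2.17 to 3.20 CPM with CoCl2 and 5.82 to 6.79 CPM with OD, and to at most 2.32 CPM in HT-29, with CDH5 at 3 counts or fewer in both. Of 5 leukocyte markers, the pan-leukocyte gene PTPRC was at 3 counts or fewer in both lines, and the sum of 1080 to 1210 CPM in HT-29 was nearly all LYZ, at 1096 ± 21.0 CPM (SD, n = 3) in controls.

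The genes of AREG, EREG and BTC lie side by side with the gene of epigen (EPGN), another EGFR ligand, on the long arm of chromosome 4. In GENCODE v44 on GRCh38, EREG spans chr4:74365145-74388749 and AREG chr4:74445136-74455005 on the plus strand, and BTC spans chr4:74744759-74794523 on the minus strand. The gap from EREG to AREG is 56.4 kb and that from AREG to BTC 289.8 kb, with 0 protein-coding genes in either, and from the start of EPGN to the end of BTC the cluster covers 486 kb. The other members lie elsewhere, HBEGF at chr5:140332843-140346603 and TGFA at chr2:70447284-70554193, both on the minus strand, and EGFR at chr7:55019017-55211628, ERBB2 at chr17:39687914-39730426 and ERBB3 at chr12:56076799-56103505, all on the plus strand. All 8 are annotated as protein-coding. TGFA overlaps the lncRNA TGFA-IT1, EGFR the antisense gene EGFR-AS1, ERBB2 the opposite-strand genes PGAP3 and MIEN1, and ERBB3 another protein-coding gene model on the same strand, and since the use of strand in counting is not stated, reads shared with these could not be separated.

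The 250 bases before the start of AREG and EREG are shown because these neighbours had nearly the same pattern over the libraries (Pearson r = 0.97 in Caco-2 and 1.00 in HT-29, over 9 libraries each, as a description). They are RefSeq windows on GRCh38.p14, given 5′ to 3′ on the plus strand, at chr4:74444886-74445135 and chr4:74364895-74365144. Capitals mark every match, on either strand, to the HIF response element cores ACGTG, found under many HIF-bound sites, and GCGTG, their common variant, to the cAMP response element TGACGTCA, or to the AP-1 site, spelled TGANTCA.
AREG: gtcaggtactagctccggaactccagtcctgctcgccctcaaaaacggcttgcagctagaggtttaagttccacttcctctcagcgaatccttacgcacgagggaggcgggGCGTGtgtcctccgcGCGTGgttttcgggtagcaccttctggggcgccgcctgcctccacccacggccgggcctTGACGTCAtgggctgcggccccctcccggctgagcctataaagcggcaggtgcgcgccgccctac
EREG: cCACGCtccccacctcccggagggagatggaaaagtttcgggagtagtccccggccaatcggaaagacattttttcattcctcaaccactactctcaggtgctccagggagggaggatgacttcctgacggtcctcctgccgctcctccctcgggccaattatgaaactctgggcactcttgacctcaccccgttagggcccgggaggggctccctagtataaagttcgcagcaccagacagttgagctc
AREG held GCGTG at -139 and -124 and TGACGTCA at -65 from the start, while EREG held in this stretch only a reverse-strand GCGTG at -249, its first capitals, and beyond it ACGTG at 39 past the start. These motifs do not overlap each other. Of 35116 RefSeq windows of 300 bases (250 before to 50 after the start), GCGTG occurred in 36.5%, ACGTG in 21.4%, TGANTCA in 7.71% and TGACGTCA in 1.85%. Of the 8 members, 7 had a window. GCGTG was also found at 26 in HBEGF, at -94 in BTC and at -51 in a window of TGFA, and TGANTCA at -222 in ERBB2 and at -232 and -136 in a window of EGFR. A match is a run of letters and says nothing of binding.

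The first comparison, each agent against the control within a line, asked how ligand and receptor mRNA differ after CoCl2 or OD. A gene was called when edgeR's quasi-likelihood test gave a Benjamini-Hochberg adjusted p (FDR) under 0.05 over all genes and the absolute log2 fold change was over 1. In Caco-2, CoCl2 raised AREG, EREG and HBEGF and lowered EGFR and ERBB3, so that 5 of 6 members tested were called, against 23.4% of 16034 genes. The 3 calls upward stand against 9.13% of genes and the 2 downward against 14.2%. By FDR alone all 6 passed, against 64.7% of genes. In HT-29, CoCl2 lowered AREG, EREG, HBEGF, BTC, EGFR and ERBB2, so that 6 of 8 members tested were called, all lower, against 41.3% of 15812 genes in either direction (17.4% higher, 23.9% lower). By FDR alone all 8 passed there, against 82.8%. With OD only HBEGF was called, higher in Caco-2 (1 of 6 members, against 11.7% of genes, 4.43% higher and 7.27% lower) and lower in HT-29 (1 of 8, against 17.1%, 9.5% higher and 7.57% lower), a share of members near that of all genes. By FDR alone OD gave 1 of 6 members in Caco-2, against 50.4% of genes, and 6 of 8 in HT-29, against 68.8%. The CoCl2 and OD comparisons of a line share their 3 control libraries. Where groups are said below to overlap or to lie apart, this is a description. The share of all genes whose groups lie apart was not counted. In bulk RNA, fewer cells of a type and less RNA per cell cannot be told apart. Over the members tested, the median log2 fold change in Caco-2 was 0.49 under CoCl2 and -0.03 under OD, beside -0.03 and -0.02 over all genes, and the HT-29 medians were -1.46 and -0.18, beside -0.03 and 0.01.

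**Figure D1:**
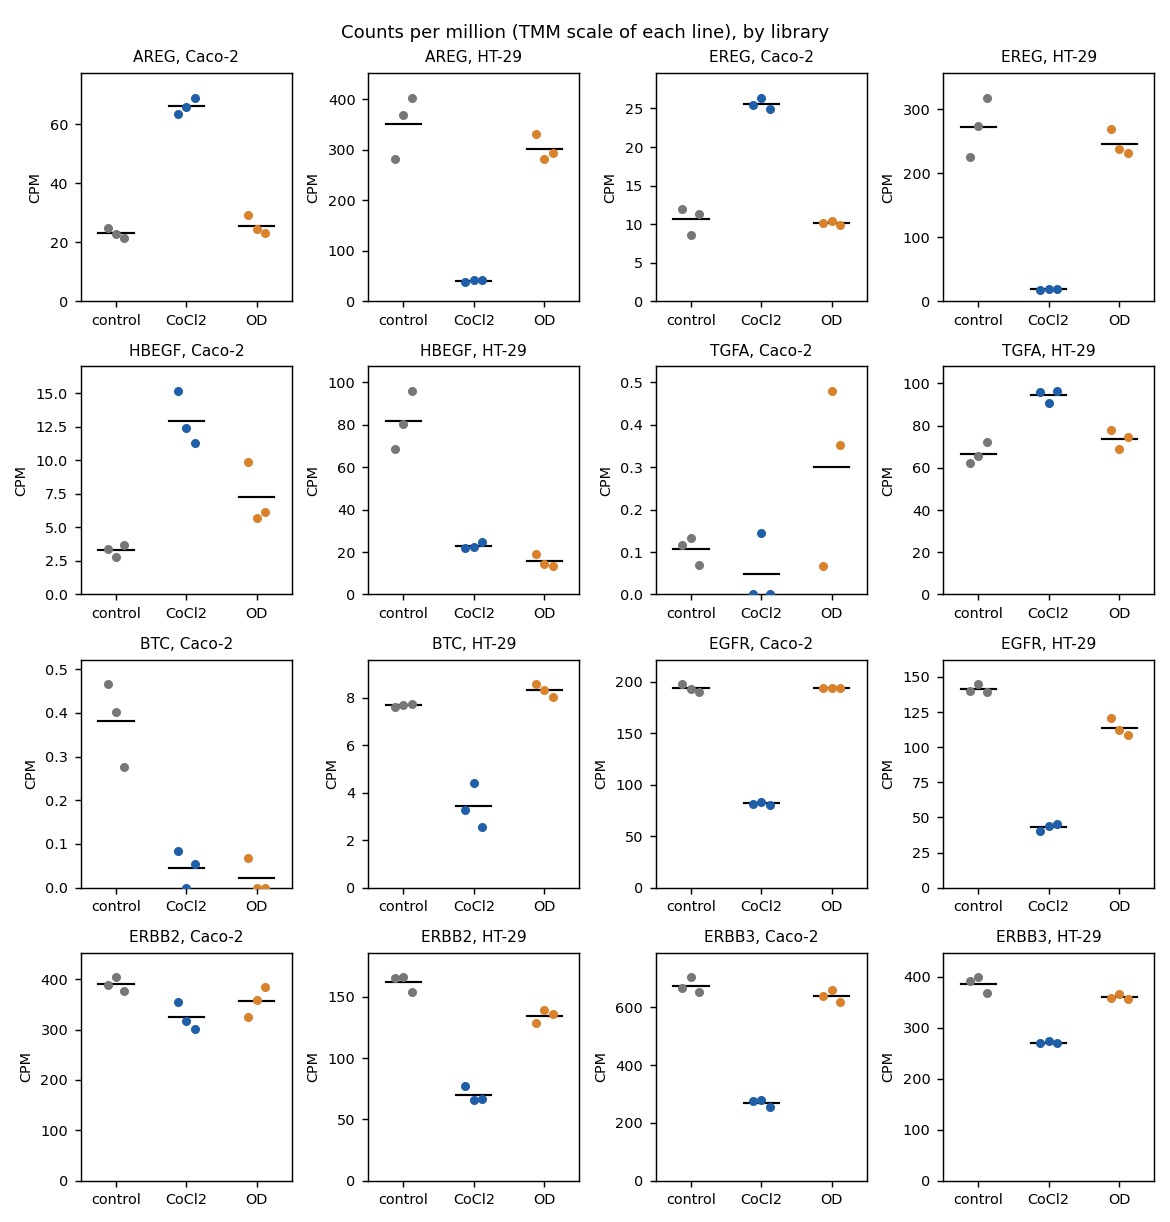
CPM (TMM scale of each line) of the 8 members in every library, with one panel per gene and line; points are the 3 replicates of a group, the horizontal bar is their mean, and each axis starts at 0. AREG and EREG stand higher with CoCl2 than in controls in Caco-2 and lower in HT-29, HBEGF shifts with both agents in opposite ways in the lines, and TGFA and BTC in Caco-2 are near the floor of detection.

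AREG, the ligand with the highest level per transcript length in every group, had 24.9, 22.7 and 21.5 CPM in the Caco-2 controls, 63.4, 65.7 and 69.0 CPM with CoCl2 and 29.1, 24.5 and 23.1 CPM with OD. All 3 CoCl2 libraries were above every control, while the OD and control libraries overlapped. With CoCl2 its edgeR log2 fold change was 1.52 (SE 0.10, FDR 1.62e-12), and with OD it was 0.15 (95% interval -0.06 to 0.36, FDR 0.234). In HT-29 the AREG level was 282, 369 and 403 CPM in controls, 38.2, 41.7 and 42.2 CPM with CoCl2 and 332, 282 and 293 CPM with OD. Here every CoCl2 library was below every control, and the OD libraries overlapped the controls. CoCl2 lowered AREG 8.65-fold in HT-29 (log2 fold change -3.11, SE 0.09, FDR 4.15e-21), and the OD change was -0.22 (FDR 0.0164), below the limit for a call.

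EREG, the neighbour of AREG, had 12, 8.65 and 11.3 CPM in Caco-2 controls, 25.4, 26.4 and 24.9 CPM with CoCl2 and 10.2, 10.4 and 9.95 CPM with OD. The CoCl2 libraries lay above all others and the OD libraries inside the control range. Its edgeR log2 fold change with CoCl2 was 1.26 (SE 0.12, FDR 3.54e-09), which fell to 0.94 with library size only and to 0.91 with limma-trend run on the authors' log2 table and was then not called, and with OD it was -0.07 (95% interval -0.34 to 0.20, FDR 0.690). In HT-29, EREG had 225, 273 and 318 CPM in controls, 17.6, 19.4 and 19.2 CPM with CoCl2 and 269, 238 and 231 CPM with OD. Again the CoCl2 libraries stood apart below the controls and the OD libraries overlapped them. CoCl2 lowered EREG 14.5-fold (log2 fold change -3.86, SE 0.10, FDR 1.40e-22), the largest of the tested changes against control, and the OD change was -0.15 (95% interval -0.31 to 0.01, FDR 0.0915).

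HBEGF, a ligand that also binds heparan sulphate, was the only member called with OD. In Caco-2 it had 3.38, 2.82 and 3.67 CPM in controls, 15.2, 12.4 and 11.3 CPM with CoCl2 and 9.89, 5.71 and 6.14 CPM with OD. All libraries of both agents were above the controls, and replicate 1 of OD was above the other OD libraries. The edgeR log2 fold change was 1.97 with CoCl2 (SE 0.20, FDR 5.83e-09) and 1.13 with OD (SE 0.21, FDR 8.27e-05). The OD value was 0.86 without replicate 1, 0.98 with library size only and 0.66 with limma-trend, and in none of these was it called. In HT-29, HBEGF had 68.4, 80.3 and 96.0 CPM in controls, 21.7, 22.3 and 24.5 CPM with CoCl2 and 18.9, 14.2 and 13.6 CPM with OD. No treated library reached the lowest control, and all OD libraries were below all CoCl2 libraries. The fall was 1.85 on the log2 scale with CoCl2 (log2 fold change -1.85, SE 0.10, FDR 2.74e-15) and 5.26-fold with OD (-2.40, SE 0.10, FDR 4.78e-17).

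TGFA, a ligand long studied in epithelial tumours, was near absent from Caco-2, with 2, 2 and 1 counts in controls, 0, 2 and 0 with CoCl2 and 1, 8 and 5 with OD, and was not tested there. The ratio of summed CPM of control over OD was 0.351, with an exact interval of 0.0989 to 1.03 for counting error. In HT-29 it had 62.4, 65.7 and 72.1 CPM in controls, 96.0, 90.6 and 96.5 CPM with CoCl2 and 77.7, 69.1 and 74.7 CPM with OD. It was the only member whose CoCl2 libraries all lay above the controls in that line, and its OD libraries overlapped the controls. The edgeR log2 fold change with CoCl2 was 0.49 (SE 0.06, FDR 1.15e-08), below the limit for a call, and turned to -0.14 with library size only. With OD it was 0.14 (95% interval 0.02 to 0.26, FDR 0.0306).

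BTC had 8, 6 and 4 counts in Caco-2 controls, 1, 0 and 1 with CoCl2 and 1, 0 and 0 with OD, and was not tested there. All treated libraries were below all controls in this line. The control over CoCl2 ratio of summed CPM was 8.56, with a counting interval of 2.05 to 76.1, and the control over OD ratio was 17.7, with an interval of 2.79 to 736. In HT-29, BTC had 7.62, 7.71 and 7.73 CPM in controls, 3.29, 4.43 and 2.55 CPM with CoCl2 and 8.59, 8.32 and 8.04 CPM with OD. CoCl2 libraries lay below the controls and OD libraries above them. The CoCl2 change was -1.15 on the log2 scale (SE 0.15, FDR 8.13e-08, edgeR), but -0.98 without replicate 3 and -0.84 with limma-trend, where it was not called, and the OD change was 0.11 (95% interval -0.13 to 0.35, FDR 0.405), or -0.02 with library size only.

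EGFR, the receptor for all 5 ligands, fell with CoCl2 in both lines. In Caco-2 its level was 198, 193 and 190 CPM in controls, 81.5, 83.1 and 80.8 CPM with CoCl2 and 194 CPM in each of the 3 OD libraries. The OD libraries sat inside the control range, whereas the CoCl2 libraries were all lower. The edgeR log2 fold change was -1.24 with CoCl2 (SE 0.07, FDR 1.19e-13) and 0.00206 with OD (95% interval -0.14 to 0.14, FDR 0.981). HT-29 had 140, 145 and 139 CPM in controls, 40.6, 43.6 and 45.1 CPM with CoCl2 and 121, 112 and 109 CPM with OD. Both sets of treated libraries lay below the controls, with CoCl2 lowest. EGFR fell by 1.72 on the log2 scale with CoCl2 (log2 fold change -1.72, SE 0.06, FDR 2.94e-20, edgeR), and the OD change of -0.31 (SE 0.05, FDR 5.30e-06) was too small for a call.

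ERBB3, the neuregulin receptor, had 668, 704 and 652 CPM in Caco-2 controls, 275, 280 and 254 CPM with CoCl2 and 640, 660 and 617 CPM with OD. Its CoCl2 libraries were all below the controls, and its OD libraries overlapped them. The edgeR log2 fold change was -1.32 with CoCl2 (SE 0.07, FDR 6.99e-14) and -0.08 with OD (95% interval -0.22 to 0.07, FDR 0.370). In HT-29, ERBB3 had 392, 399 and 367 CPM in controls, 269, 274 and 269 CPM with CoCl2 and 359, 365 and 356 CPM with OD. The groups did not overlap, yet the CoCl2 change was -0.51 (SE 0.04, FDR 4.68e-11) and was called only with library size, at -1.14. The OD change in that line was -0.10 (95% interval -0.19 to -0.01, FDR 0.0443).

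ERBB2, the receptor without a ligand of its own, had 389, 404 and 376 CPM in Caco-2 controls, 355, 316 and 301 CPM with CoCl2 and 324, 359 and 384 CPM with OD. The CoCl2 libraries were just below the controls, and the OD libraries overlapped both other groups. Neither change was called there, at -0.27 with CoCl2 (SE 0.08, FDR 0.00456, edgeR) and -0.13 with OD (95% interval -0.29 to 0.03, FDR 0.166). In HT-29, ERBB2 had 165, 166 and 154 CPM in controls, 77.3, 66.2 and 66.7 CPM with CoCl2 and 129, 139 and 136 CPM with OD. The groups were apart, with CoCl2 lowest. CoCl2 lowered ERBB2 2.30-fold (log2 fold change -1.20, SE 0.06, FDR 1.43e-16), and with OD the change was -0.26 (SE 0.05, FDR 0.000125).

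The response to each agent was then compared between the lines as an interaction over all 18 libraries, HT-29 response minus Caco-2 response. For CoCl2, 4 of 8 members were called, all lower in HT-29, against 21.6% of 17921 genes in either direction (7.79% higher, 13.8% lower), and 6 of 8 passed by FDR alone, against 49.8%. The difference of log2 fold changes was -4.74 for AREG (SE 0.15, FDR 3.78e-23), -5.22 for EREG (SE 0.16, FDR 3.78e-23), -3.92 for HBEGF (SE 0.24, FDR 1.28e-15) and -1.04 for ERBB2 (SE 0.10, FDR 1.5e-10). The ERBB2 value was -0.94 with RLE scaling and with DESeq2, and was then not called. For AREG, EREG and HBEGF the directions in the lines were opposite, higher in Caco-2 and lower in HT-29. EGFR and ERBB3 fell or were lower in both lines and differed less, by -0.58 (FDR 1.05e-06) and 0.70 (FDR 6.91e-09), EGFR falling further in HT-29 and ERBB3 in Caco-2. For OD, 2 of 8 members were called, against 15.2% of genes (8.96% higher, 6.24% lower), and 4 passed by FDR alone, against 42.9%. They were HBEGF, with a difference of -3.54 (SE 0.25, FDR 1.75e-13), and BTC, whose value of 3.82 rests on Caco-2 libraries of 0 to 8 counts and is not read further. The OD difference was -0.38 for AREG (FDR 0.0309), -0.09 for EREG (95% interval -0.43 to 0.24, FDR 0.692), -0.33 for EGFR (FDR 0.00134), -0.15 for ERBB2 (FDR 0.238) and -0.04 for ERBB3 (FDR 0.738). The TGFA differences also rest on Caco-2 libraries near the floor and are not given a size here.

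**Figure D2:**
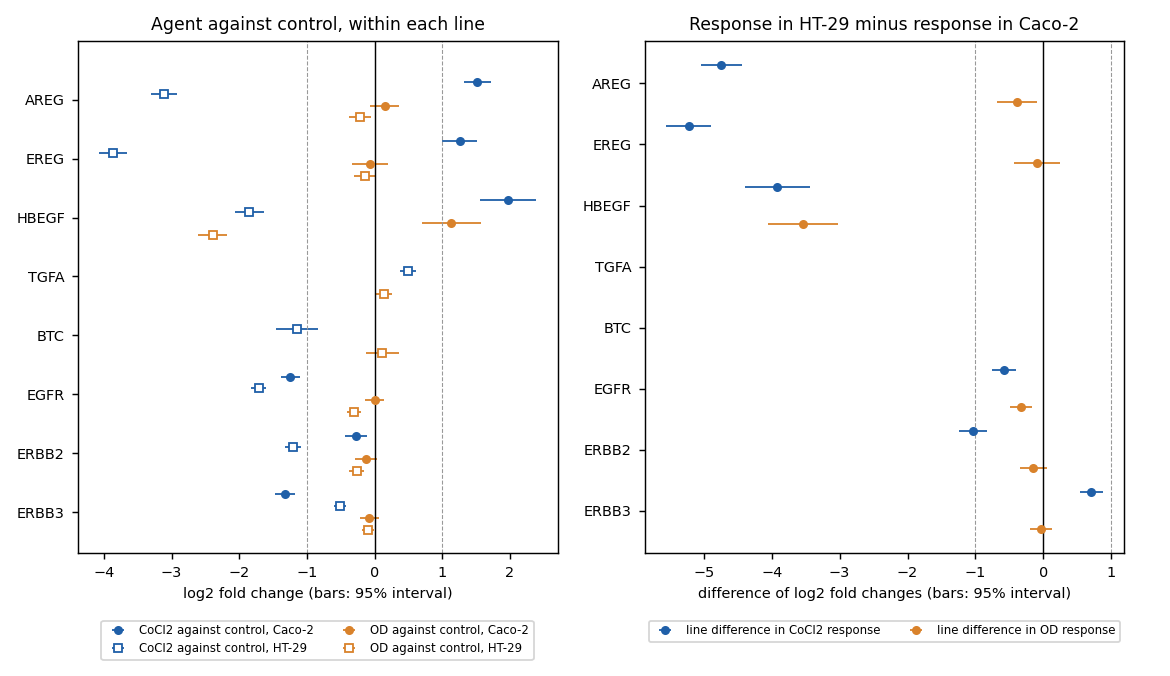
Left, log2 fold change of each member against control (x axis) for CoCl2 and OD in each line; right, the difference between these responses, HT-29 minus Caco-2. Bars are 95% intervals and dashed lines mark a log2 value of 1 in either direction; TGFA and BTC are not shown for Caco-2 or on the right because of their low counts. AREG, EREG and HBEGF stand on opposite sides of 0 in the lines with CoCl2, the Caco-2 values being 1.52, 1.26 and 1.97 and those of HT-29 -3.11, -3.86 and -1.85, and TGFA with CoCl2 in HT-29, at 0.49, turned to -0.14 with library size only.

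The direct comparison of the agents asked what separates CoCl2 at 300 µM from OD at 5 µM, doses that differ and were each chosen by the study. In Caco-2, 4 of 6 members were called, against 11.7% of genes (5.21% higher, 6.44% lower), and 5 passed by FDR alone, against 49.6%. AREG (log2 difference 1.37, FDR 3.71e-11, edgeR) and EREG (1.32, FDR 4.59e-09) were higher with CoCl2, and EGFR (-1.25, FDR 6.18e-13) and ERBB3 (-1.25, FDR 1.04e-12) were lower. HBEGF was 0.84 higher with CoCl2 (95% interval 0.47 to 1.21, FDR 0.000424) and not called, although without replicate 1 it reached 1.01 and was. In HT-29, 4 of 8 members were called, all lower with CoCl2, against 29.9% of genes in either direction (10.8% higher, 19.2% lower), and all 8 passed by FDR alone, against 77.7%. They were AREG (-2.89, FDR 4.48e-20), EREG (-3.71, FDR 7.37e-22), BTC (-1.26, FDR 1.84e-08, or -0.91 and not called with limma-trend) and EGFR (-1.40, FDR 6.36e-18). ERBB2 reached -0.94 (FDR 6.04e-14) and passed the fold limit with library size only, at -1.44, without replicate 1, at -1.04, and in a fit of all 18 libraries, at -1.03. HBEGF was again higher with CoCl2 than with OD, by 0.55 (FDR 0.000282), without being called.

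Ligands and receptors started from different levels in the lines. Of the 8 members, 6 were called between the control groups, 5 higher in HT-29 and 1 lower, against 45.8% of genes (21.6% higher, 24.2% lower), and all 8 passed by FDR alone, against 79.1%. On a scale fitted over all 18 libraries, AREG ran from the HT-29 controls at 368 CPM and HT-29 with OD at 313 CPM, whose libraries overlapped, through Caco-2 with CoCl2 at 64.9 CPM and HT-29 with CoCl2 at 39.5 CPM, to Caco-2 with OD at 25.1 CPM and Caco-2 controls at 22.6 CPM, which overlapped. With CoCl2 the order of the lines was therefore the reverse of that in the controls. EREG had the same order at the top, with 285 and 255 CPM in HT-29 controls and OD and 25.1 and 18.2 CPM with CoCl2 in Caco-2 and HT-29, and its lowest groups, 10.5 CPM in Caco-2 controls and 10.0 CPM with OD, overlapped. HBEGF was highest in HT-29 controls at 85.4 CPM, followed by HT-29 with CoCl2 at 22.2 CPM, then HT-29 with OD at 16.1 CPM and Caco-2 with CoCl2 at 12.8 CPM, which overlapped, and Caco-2 with OD at 7.13 CPM and controls at 3.23 CPM. TGFA was 91.6 CPM in HT-29 with CoCl2, above OD at 76.4 CPM and controls at 69.8 CPM, which overlapped, and every Caco-2 group was under 0.3 CPM on average. BTC was 8.61 CPM with OD, 8.04 CPM in controls and 3.32 CPM with CoCl2 in HT-29, none overlapping, and under 0.4 CPM in Caco-2. The HT-29 over Caco-2 difference between controls was 4.02 on the log2 scale for AREG (FDR 6.05e-27, edgeR), 4.76 for EREG (FDR 2.41e-28) and 4.73 for HBEGF (FDR 2.50e-23).

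The receptors had the opposite order of lines. EGFR was 191 CPM in Caco-2 with OD and 190.3 CPM in Caco-2 controls, which overlapped, then 148 CPM in HT-29 controls, 118 CPM with OD, 80.3 CPM in Caco-2 with CoCl2 and 41.8 CPM in HT-29 with CoCl2, each apart from the next. ERBB2 was 383, 350.2 and 318 CPM in Caco-2 controls, OD and CoCl2, neighbours overlapping, and 169, 139 and 68.0 CPM in the same groups of HT-29, all apart. ERBB3 was 663 and 629 CPM in Caco-2 controls and OD, which overlapped, 404 and 373 CPM in HT-29 controls and OD, and 265 and 263 CPM with CoCl2 in Caco-2 and HT-29, which overlapped. Between the controls, ERBB2 was 1.18 lower in HT-29 on the log2 scale (log2 difference -1.18, FDR 8.16e-17, edgeR) and was the receptor called, with -0.36 for EGFR (FDR 9.47e-07) and -0.72 for ERBB3 (FDR 2.32e-13).

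To compare the genes with each other within a line, levels were taken per transcript length, as the RPKM behind the deposited log2 values, and are given as a description. In Caco-2 the 5 ligands summed to 17.3 ± 1.27 RPKM (SD, n = 3) for controls, 48.7 ± 0.889 under CoCl2 and 19.7 ± 2.57 under OD, TGFA and BTC being listed at 0 there because they had failed the authors' filter. In HT-29 the sum was 315 ± 52.9 RPKM in controls, 54.4 ± 1.75 with CoCl2 and 254 ± 21.0 with OD. AREG made up 77.7% to 84.9% of this sum in the Caco-2 libraries and 68.9% to 71.2% in the HT-29 controls. With CoCl2 in HT-29 the AREG share was 42.8% to 45.1%, while that of TGFA was 32.7% to 35.9%, against 4.18% to 5.08% in the controls. The HBEGF share in HT-29 was 8.94% ± 0.378 in controls, 13.6% ± 0.529 under CoCl2 and 2.07% ± 0.214 under OD. The pool of these 5 ligands with CoCl2 was thus made of other proportions than in the controls in HT-29. In Caco-2 the AREG share was 82.5% ± 2.30 in controls and 82.0% ± 1.80 with CoCl2. EGF, which is not in this sum, was at 0.189 RPKM in HT-29 controls and 4.54 with CoCl2, and at 1.45 and 2.40 in Caco-2.

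**Figure D3:**
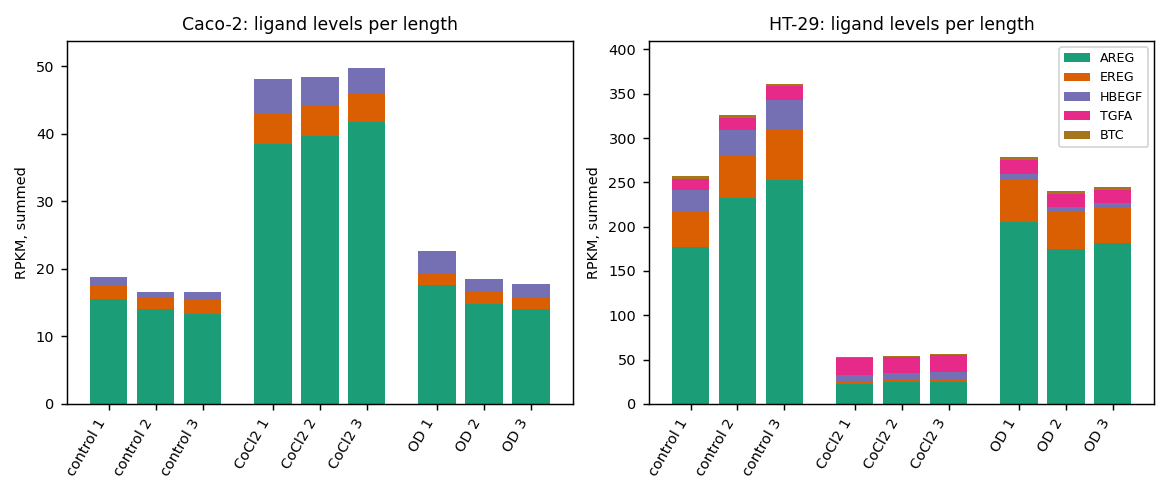
RPKM of the 5 ligands, stacked, in each library of Caco-2 (left) and HT-29 (right); the y axes differ and both start at 0, and libraries are named by group and replicate. The Caco-2 sum is 17.3 RPKM in controls and 48.7 RPKM with CoCl2 on average, the HT-29 sum 315 and 54.4 RPKM, and TGFA takes 32.7% to 35.9% of the bar with CoCl2 in HT-29.

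The 3 receptors summed to 132 ± 4.51 RPKM in Caco-2 controls, 68.0 ± 4.06 with CoCl2 and 122 ± 2.52 with OD, and to 72.8 ± 2.90, 39.5 ± 0.265 and 63.7 ± 0.874 RPKM in HT-29. ERBB3 was the largest part in the controls of both lines, at 58.9% ± 0.458 in Caco-2 and 61.9% ± 0.321 in HT-29. With CoCl2 its share was 44.6% ± 1.40 in Caco-2, beside 45.8% ± 1.78 for ERBB2, and 75.0% ± 0.971 in HT-29. The sum of the 3 receptors thus outweighed that of the 5 ligands in every Caco-2 group, while in HT-29 the ligand sum exceeded the receptor sum in all 3 groups.

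The rest of the pathway was read from 61 genes in 6 lists, of which 54 were tested in each line. With CoCl2, 13 of the 54 were called in Caco-2 (12 higher, 1 lower, 24.1%) and 20 in HT-29 (10 higher, 10 lower, 37.0%), beside 23.4% and 41.3% of all genes. With OD, 9 were called in Caco-2 (8 higher, 1 lower, 16.7%) and 11 in HT-29 (4 higher, 7 lower, 20.4%), beside 11.7% and 17.1%. The share of the pathway genes called in either direction thus stood near that of all genes. By direction, 9.13% of all genes were higher and 14.2% lower with CoCl2 in Caco-2, and 4.43% and 7.27% with OD. In HT-29 these shares were 17.4% and 23.9% with CoCl2, and 9.5% and 7.57% with OD. The pathway calls in Caco-2 were thus mostly higher, whereas the calls over all genes were more often lower. The genes that ERK induces gave 10 of the 13 and 7 of the 9 calls in Caco-2, and 9 of the 20 and 7 of the 11 in HT-29 (CoCl2 and OD).

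Among 6 other EGF-family ligands and the receptor ERBB4, 1 passed the filter for testing in Caco-2, and 2 did in HT-29. EGF, the founding ligand of the family, went from 1.40 ± 0.468 CPM (SD, n = 3) in HT-29 controls to 35.8 ± 1.67 with CoCl2 (log2 fold change 4.73, SE 0.13, FDR 9.41e-22, edgeR) and 3.8 ± 0.501 with OD (1.49, SE 0.19, FDR 1.13e-07), and so rose with both agents. In Caco-2, EGF was 10.9 ± 0.716 CPM in controls, 18.4 ± 1.61 with CoCl2 (0.77, FDR 1.67e-05) and 6.84 ± 1.06 with OD (-0.67, FDR 0.000423), neither called. NRG4, an ERBB4 ligand, rose with CoCl2 in HT-29 from 0.498 ± 0.228 to 6.32 ± 0.714 CPM (3.61, SE 0.23, FDR 6.47e-14). ERBB4 had 0 to 2 counts in every library. EPGN, in the chromosome 4 cluster, had 7 to 14 counts in HT-29 controls, 1 to 3 under CoCl2 and 2 to 5 under OD, too few for a test. Of the genes beside the cluster, PARM1 fell with CoCl2 in HT-29 (log2 fold change -1.18, SE 0.12, FDR 6.75e-10, edgeR) and MTHFD2L fell with OD in Caco-2 (-1.02, SE 0.15, FDR 5.41e-06). These were the only calls against control among the 4 listed neighbours tested, which do not include AREG, EREG or BTC.

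For ligand shedding, 9 genes were listed. ADAM17, the main sheddase of AREG, EREG, HBEGF and TGFA, rose in HT-29 from 46.7 ± 2.68 CPM in controls to 149.9 ± 3.23 with CoCl2 (log2 fold change 1.68, SE 0.06, FDR 2.54e-20, edgeR) and 111 ± 5.64 with OD (1.25, SE 0.05, FDR 7.26e-17). In Caco-2 it went from 43.2 ± 1.5 to 71.2 ± 0.0656 CPM with CoCl2 (0.72, FDR 3.59e-08) and 64.8 ± 5.18 with OD (0.59, FDR 2.00e-06), both under the limit for a call. RHBDF2, a rhomboid-like protein that carries ADAM17 to the surface, fell with CoCl2 in Caco-2 (-1.28, SE 0.19, FDR 2.88e-06) and rose with OD in HT-29 (1.18, SE 0.07, FDR 1.74e-13). NRDC (1.13, SE 0.05) and RHBDF1 (1.02, SE 0.05) were called higher with CoCl2 in HT-29, and with library size only they stood at 0.50 and 0.38 and were not called. ADAM10, which sheds BTC and EGF, was called nowhere, its log2 fold change being 0.12 (CoCl2) and 0.06 (OD) for Caco-2, 0.35 and 0.24 for HT-29.

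Of 10 genes that restrain the receptors, ERRFI1, whose protein blocks the EGFR kinase, rose with CoCl2 in Caco-2 from 24.4 ± 1.53 to 70.9 ± 7.59 CPM, a log2 fold change of 1.55 (SE 0.11, FDR 5.37e-12, edgeR), and fell with OD in HT-29 from 480.3 ± 90.4 to 185 ± 20.8 CPM (-1.38, SE 0.09, FDR 1.28e-13). With CoCl2 in HT-29, ERRFI1 stood at 703 ± 17.0 CPM (0.55, or -0.08 with library size only). With OD in Caco-2 it stood at 38.6 ± 5.77 CPM (0.66), and neither change was called. Its response differed between the lines for both agents, by -1.11 for CoCl2 (FDR 1.96e-07) and -2.06 for OD (FDR 8.98e-13). RNF41, a ubiquitin ligase that limits ERBB3, and LRIG1, which limits several ERBB receptors, fell with CoCl2 in HT-29, by 1.38 and by 1.33 on the log2 scale (SE 0.06 and 0.08). SOCS5 was called higher there at 1.09, or 0.46 and not called with library size only. The other members of this list were not called against control in either line.

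Among 16 adaptors and kinases of the RAS-ERK chain, MAP2K1, which encodes the kinase MEK1, rose with CoCl2 in both lines, by 1.16 on the log2 scale for Caco-2 (SE 0.09, FDR 9.17e-11, edgeR) and by 2.1 for HT-29 (SE 0.05, FDR 7.15e-23), and with OD it was called higher for Caco-2 (1.03, SE 0.09, FDR 2.30e-09) and stood at 0.66, below the fold needed, for HT-29. With library size only the Caco-2 values were 0.84 and 0.87 and were not called. GRB2, the adaptor that links receptors to RAS, was called higher with CoCl2 in HT-29 at 1.30 (SE 0.05), or 0.66 and not called with library size only. No other gene of the chain was called against control, the range of all 16 being -0.17 to 1.16 with CoCl2 in Caco-2 and -0.19 to 2.1 in HT-29.

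Of the 15 genes known to be induced by ERK, as feedback inhibitors or targets, those called against control were higher in Caco-2 and mostly lower in HT-29. Their starting levels differed, since 13 of the 15 were called higher in HT-29 controls than in Caco-2 controls and 0 lower. The median log2 difference between the controls was 3.46, and 21.6% of all genes were called higher and 24.2% lower. In Caco-2, 10 were higher and 0 lower with CoCl2, with a median log2 fold change of 1.33 beside -0.03 over all genes, and 7 were higher and 0 lower with OD, with a median of 0.88 beside -0.02. The shares of all genes called there were 9.13% higher and 14.2% lower with CoCl2, and 4.43% and 7.27% with OD. In HT-29, 2 were higher and 7 lower with CoCl2, with a median of -0.85 beside -0.03, against 17.4% of all genes higher and 23.9% lower. With OD, 1 was higher and 6 lower in that line, with a median of -0.65 beside 0.01, against 9.5% and 7.57%. The difference between the lines was called lower in HT-29 for 12 of 15 genes with CoCl2 and 11 of 15 with OD, and higher for 0, beside 13.8% and 6.24% of all genes called lower. These counts of line differences were the same with library size and with RLE scaling, and with library size only the calls within the lines were 8 higher and 0 lower and 6 and 0 in Caco-2, and 2 and 10 and 1 and 6 in HT-29. The 15 genes are not independent of each other, and DUSP5 is also on the study's own list of hypoxia genes, drawn from Caco-2 cells. The list of 15 was chosen with earlier results of these data known, so its counts beside those of all genes are a description.

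DUSP6, an ERK-specific phosphatase, went from 10.2 ± 0.520 to 54.4 ± 1.35 CPM with CoCl2 in Caco-2 and from 126 ± 10.1 to 21.4 ± 0.566 CPM in HT-29, with log2 fold changes of 2.42 (FDR 5.44e-16, edgeR) and -2.56 (FDR 9.49e-22). EGR1, an early growth response factor, stood at 8.16 ± 0.917 CPM in Caco-2 controls and 23.6 ± 0.738 with CoCl2, and in HT-29 at 148 ± 21.2 CPM in controls, 11.4 ± 1.17 under CoCl2 and 5.10 ± 0.457 under OD. The EGR1 response to CoCl2 differed by -5.35 between the lines (SE 0.16, FDR 1.39e-23). FOS and FOSL1, subunits of AP-1, rose with CoCl2 in Caco-2 by 4.23 and 5.15 on the log2 scale, and FOSL1 also rose in HT-29, by 2.73 (FDR 2.58e-21), while FOS there changed by 0.15 (FDR 0.0664). DUSP5 rose with each agent in each line, by 2.77 (CoCl2) and 2.72 (OD) in Caco-2, by 2.49 and 2.26 in HT-29, and its line difference was -0.38 for CoCl2 (FDR 0.104). DUSP5 and FOSL1 were thus the called exceptions to the lower direction in HT-29. With OD in HT-29, the AREG, EREG and TGFA libraries overlapped the controls, and BTC changed by 0.11 without a call. HBEGF was called lower (-2.40), and EGFR (-0.31), ERBB2 (-0.26) and ERBB3 (-0.10) were lower without a call. A link between the members and the ERK-induced genes was not tested. In that comparison, 6 of the ERK-induced genes were called lower. Among them were DUSP6 at 34.2 ± 3.49 CPM (-1.88, FDR 4.33e-19) and SPRY4, another inhibitor of the pathway, at -1.25 (FDR 4.73e-15). Of these genes, SPRY4 (-0.58) and FOS (0.15) had not been called with CoCl2 in that line.

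**Figure D4:**
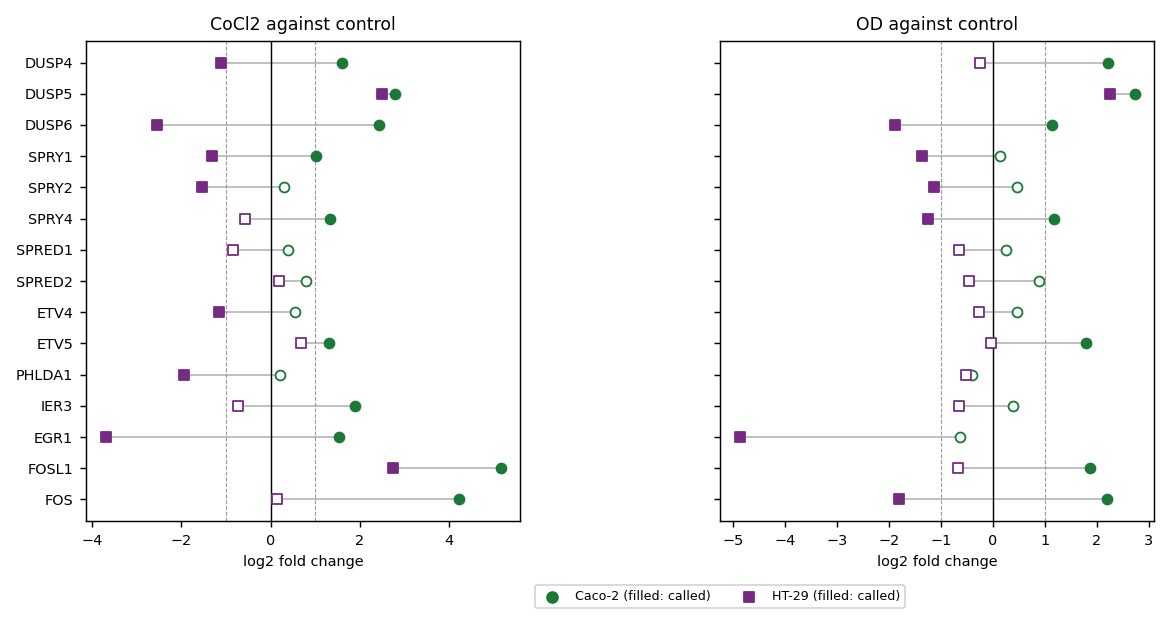
Log2 fold change against control (x axis) of the 15 ERK-induced genes with CoCl2 (left) and OD (right); circles are Caco-2, squares HT-29, filled symbols are called genes and the grey line joins the lines' values. Caco-2 values lie to the right of HT-29 values for all 15 genes with CoCl2, from 1.01 (SPRY1) to 5.15 (FOSL1) among those called in Caco-2, and the lowest values of HT-29 are those of EGR1, at -3.70 and -4.87.

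The genes most like each member were found by the lower of the within-line Pearson correlations over the 9 libraries of each line, on log2 CPM, among 13261 genes, as a description, since all libraries of a group share its treatment. EREG and the lactate receptor gene HCAR1 were most like AREG, both with 0.97, and AREG was most like EREG. PREP (0.96), PAICS (0.96) and EDN1 (0.95) were most like HBEGF. EGFR and ERBB3 were near each other (0.99) and both near PKP4 (0.99). For TGFA and BTC, read in HT-29 alone over 14912 genes, SMIM26 (0.99) and EEF2KMT (0.99) came first. The correlation of AREG with EGFR was -0.98 over the Caco-2 libraries and 0.99 over those of HT-29, and of HBEGF with EGFR -0.80 and 0.45. TGFA ran against the receptors in HT-29, with -0.94 for EGFR, -0.95 for ERBB2 and -0.97 for ERBB3.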

How the data were processed

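Read counts per gene from 18 mRNA libraries were analysed, and the 18 miRNA libraries of the series were not used here. Per the study's methods, reads were single-end and were counted on a GENCODE annotation of GRCh38. The submitters' processing notes name cutadapt 2.10, STAR 2.7.5b, FastQC 0.11.9 and edgeR 3.30.3. The read counter and whether it used strand were not given in the sources used here. The authors deposited raw counts of reads for every gene, and also a log2 table. The log2 values deposited by the authors were read as log2 of RPKM plus 1 on a TMM scale, with genes that failed their filter at 0 in that line. The ratio of CPM, on the TMM scale of each line, to RPKM varied between libraries by a median of 1.29% in Caco-2 and 2.89% in HT-29 (SD over mean). Whether the authors scaled within each line or over both was not settled. RPKM was obtained by reversing the log2.

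Each line was fitted alone over its 9 libraries with edgeR 4.0.16 in R 4.3.3, with TMM scaling, filterByExpr (minimum count 10) and 1 coefficient per group. Differences between the lines were fitted over all 18 libraries. Tests were two-sided quasi-likelihood F tests with Benjamini-Hochberg adjustment over every gene tested. The SE is the log2 fold change divided by the square root of F, and 95% intervals use its degrees of freedom. Fits were tested on simulated data in which 100 genes were changed by 1.5 and 100 by 3 on the log2 scale, and 99% and 100% were recovered for CoCl2 in Caco-2 (16256 genes) and 98% and 100% in HT-29 (15813 genes). The changed genes were well expressed, moved equally often up and down, and all genes had the same fixed spread. The simulation therefore does not cover changed genes with low counts, changes near the limit for a call, or a response of many genes. Depth was 12925719 to 22332639 counts per library, and the median SE of a log2 fold change against control was 0.127 (CoCl2) and 0.126 (OD) for Caco-2, and for HT-29 it was 0.0927 (CoCl2) and 0.0855 (OD). Replicates differed by more than sampling noise in every group, so no library was counted as a copy of another. For Caco-2 with CoCl2, the chi-square per degree of freedom was 8.79 and 10.7 for pairs with replicate 1 and 3.42 without it. For Caco-2 with OD these values were 9.51, 12.6 and 3.43. In HT-29 controls, pairs with replicate 3 had 6.10 and 5.00, and the other pair 1.99. All per-sample columns were matched to a sample by the labels, and 0 were left out.

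The members and the lists of pathway, neighbour and marker genes were chosen with earlier results of these data known. From the pathway lists, the text names for each list and comparison with a control the called genes with the largest absolute change, up to 3, among those with a mean of at least 10 counts, and further genes after their values were seen. A few values for single genes are not reported here. Alternatives were library-size and RLE scaling, no filter, DESeq2 1.42.0, limma-trend (limma 3.58.1) on the deposited log2 values, a replicate block, leaving out each replicate number, no limit on the fold change, and a fit of all 18 libraries. Coordinates are GENCODE v44 on GRCh38, and promoter windows are from RefSeq.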

Additional observations from a re-analysis of the deposited data

Results flagged for a closer look

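The response to CoCl2 was called different between the lines for 4 of 8 members in the edgeR interaction test over 18 libraries. Of 17921 genes, 21.6% were called in either direction and 13.8% lower. Differences are given as the log2 fold change in HT-29 minus that in Caco-2. The difference was -4.74 for AREG (FDR 3.78e-23), -5.22 for EREG (FDR 3.78e-23), -3.92 for HBEGF (FDR 1.28e-15) and -1.04 for ERBB2 (FDR 1.50e-10). The ERBB2 difference was not called with RLE scaling or with DESeq2. All 3 CoCl2 libraries of AREG, EREG and HBEGF lay above the controls in Caco-2 and below them in HT-29. This is a description, since the share of all genes separated in this way was not counted. By FDR alone, 64.7% of all genes passed with CoCl2 in Caco-2 and 82.8% in HT-29. The response to OD differed for HBEGF, by -3.54 (FDR 1.75e-13), with all 3 OD libraries above the controls in Caco-2 and below them in HT-29. The lines also differed in culture state and medium, which cannot be told apart from the line.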

How the results depend on the processing

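Of 612 re-estimated log2 fold changes of members, 583 kept their direction and their side of the limit for a call, 6 gained a call, 11 lost it and 12 turned in sign. For OD in Caco-2, 1 member was called, but 0 with library size only and with limma-trend, 2 with no filter and in the fit of all 18 libraries, and 0 to 1 when a replicate number was left out. By FDR alone, the members called rose to 6 of 8 for OD in HT-29, beside 68.8% of all genes. They rose to 8 of 8 for CoCl2 against OD in HT-29, beside 77.7%. For the line difference in the OD response they rose to 4 of 8, beside 42.9%. Of 54 pathway genes, 44 (CoCl2) and 39 (OD) were then called for Caco-2, beside 64.7% and 50.4% of all genes, and 47 (CoCl2) and 45 (OD) for HT-29, beside 82.8% and 68.8%, and for OD in Caco-2 limma-trend left 2. Signs turned with library size only for AREG (-0.01) and EGFR (-0.15) with OD in Caco-2, for TGFA with CoCl2 in HT-29 against control (-0.14) and against OD (-0.14), and for BTC with OD in HT-29 (-0.02). EGFR with OD in Caco-2 was -0.03 with limma-trend and ran from -0.01 to 0.01 when a replicate number was left out (0 without replicate 2). EREG with OD ran from -0.22 to 0.03 in Caco-2, the highest without replicate 1, and from -0.34 to 0.03 in HT-29, the highest without replicate 3, and its line difference from -0.41 to 0.08 (0.03 without replicate 3). Apart from the scalings and settings that change the scale itself, the cause was not tested.

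Same-numbered libraries correlated by -0.244 to 0.253 in Caco-2, with 2 of 9 pairs over 0.1, and by -0.117 to 0.0754 in HT-29, with 0 of 9, so the numbers were not taken to pair the samples. With a replicate block the members called numbered 5 (CoCl2) and 1 (OD) for Caco-2, 6 and 1 for HT-29, and no member call changed. Depth limits TGFA and BTC in Caco-2, which had at most 8 counts per library.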
